A study of Mus musculus with 2 samples.

Results

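The cell cycle phase genes are 45 mouse genes of DNA replication and division, 45 of the 32285 genes listed in the deposited single-cell matrices, and all 45 were found there. They were chosen by name and not by a filter on their measured values, though with earlier results of these data known. The 21 S-phase members are Mcm2 to Mcm7, Pcna, Tyms, Rrm1, Rrm2, Dut, Hells, Clspn, Pclaf, Gins2, Cdc6, Cdc45, Uhrf1, Fen1, Slbp and Ccne2. The 24 G2/M members are Mki67, Top2a, Cdk1, Ccnb1, Ccnb2, Ccna2, Birc5, Ube2c, Nusap1, Cenpf, Cenpe, Cenpa, Cdca8, Cdca3, Plk1, Aurka, Aurkb, Bub1, Tpx2, Stmn1, Tubb5, Hmgb2, Cdc20 and Cks2. The genes lie on 16 chromosomes of GRCm38, the assembly also called mm10.

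RNA was counted in single live CD45+ cells sorted from tumours that had grown under the skin of B6 mice until day 14. The tumours came from B16.SIY, a line of the B16 mouse melanoma that carries the SIY model antigen. In the control group the line had been transduced with control shRNA lentivirus, and in the knockdown group with Decr2 shRNA lentivirus, and both had been kept in 1.5 µg/mL puromycin for 3 days before injection. The knockdown was thus in the tumour cells and not in the immune cells measured here, and both groups carry a lentivirus. Each group had 1 library, and the sources used here do not say how many tumours or mice it held. No difference between the libraries therefore has a replicate check, and no p-value is given. Intervals in brackets are 95% intervals that cover counting error alone. They are exact, except that differences of shares carry approximate (Newcombe) intervals.

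A dividing cell copies its DNA in S phase and then passes through G2 into mitosis. The MCM helicase, which opens DNA at origins, and the enzymes that make deoxynucleotides are produced as S phase begins, under the E2F transcription factors. Cyclin B, the Aurora and Polo kinases and the proteins of spindle and centromere are produced later, under MYB-MuvB and FOXM1, often through a promoter element called CHR. In a tumour, T cells that meet their antigen divide, whereas plasmacytoid dendritic cells are mature cells that divide little.

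The stretches upstream of 7 members are printed because they show the promoter letters in which the S-phase and G2/M members differed. Each is the 160 bases that end 1 base before the start site, written 5′ to 3′ on the gene's strand, from RefSeq promoter windows on GRCm38.p6. The start sites are those of RefSeq, and the GENCODE M21 annotation places some elsewhere. There the Cdc6 gene begins at 98907801, so its stretch lies inside that gene. The stretches of Hells, Cdk1, Ube2c and Cdc20 lie partly inside theirs. In the first 3, from S-phase members, capitals mark an E2F-type motif, searched as TTTCCCGC, TTTCGCGC, TTTGCCGC and TTTGGCGC on both strands.
Mcm6, chr1:128359706-128359865, minus strand: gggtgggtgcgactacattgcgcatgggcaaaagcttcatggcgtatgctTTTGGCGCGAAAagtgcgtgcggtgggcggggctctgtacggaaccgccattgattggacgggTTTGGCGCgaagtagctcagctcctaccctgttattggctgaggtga
Hells, chr19:38930830-38930989, plus strand: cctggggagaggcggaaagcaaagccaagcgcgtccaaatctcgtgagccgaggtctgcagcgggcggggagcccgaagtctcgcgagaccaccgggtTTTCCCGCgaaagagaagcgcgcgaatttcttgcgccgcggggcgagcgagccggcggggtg
Cdc6, chr11:98907991-98908150, plus strand: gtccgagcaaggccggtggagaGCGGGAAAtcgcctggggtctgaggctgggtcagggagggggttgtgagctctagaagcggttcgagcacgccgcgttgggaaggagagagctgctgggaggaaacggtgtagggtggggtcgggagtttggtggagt
In Mcm6 the first run of capitals holds a pair of matches that overlap.

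The next 4 belong to G2/M members, and capitals mark the CHR motif, TTTGAA on either strand. In Cdk1, capitals mark the E2F-type match as well.
Cdk1, chr10:69352913-69353072, minus strand: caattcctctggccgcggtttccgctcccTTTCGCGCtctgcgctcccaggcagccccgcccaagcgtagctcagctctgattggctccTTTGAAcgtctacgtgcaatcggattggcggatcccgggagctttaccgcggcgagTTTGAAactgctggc
Top2a, chr11:99024190-99024349, minus strand: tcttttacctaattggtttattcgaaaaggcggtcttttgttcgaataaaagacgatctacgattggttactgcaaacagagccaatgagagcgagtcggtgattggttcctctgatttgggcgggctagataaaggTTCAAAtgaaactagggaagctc
Ube2c, chr2:164769769-164769928, plus strand: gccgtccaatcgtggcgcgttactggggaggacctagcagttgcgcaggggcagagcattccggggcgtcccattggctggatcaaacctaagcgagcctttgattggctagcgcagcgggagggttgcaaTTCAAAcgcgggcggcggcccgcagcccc
Cdc20, chr4:118437344-118437503, minus strand: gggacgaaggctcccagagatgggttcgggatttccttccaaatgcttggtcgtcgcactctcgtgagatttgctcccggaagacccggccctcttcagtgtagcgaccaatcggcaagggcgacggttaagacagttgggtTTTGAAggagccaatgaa
RefSeq windows of 300 bases, 250 before to 50 after the start site, matched 38 of the 45 members. An E2F-type match stood in 8 of 18 S-phase windows (44.4%) and in 1 of 20 G2/M windows (5%), that of Cdk1. Over all 27025 windows the share was 2.32%. A CHR match stood in 13 of 20 G2/M windows (65%) and in 3 of 18 S-phase windows (16.7%), beside 18.1% of all windows. CCAAT, the letters bound by NF-Y, stood in 18 of 20 G2/M and 13 of 18 S-phase windows (90% and 72.2%), beside 37.9% of all. These matches describe letters and were not tested as sites.

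RNA molecules were counted as unique molecular identifiers (UMIs), 47538493 over 11335 control barcodes and 55417986 over 9542 knockdown barcodes. Median depth of the kept cells was 2879 and 4453 UMIs, so each cell was thinned at random to 1000 UMIs before members were counted. This left 8498 control and 6481 knockdown cells. Levels are UMIs per 1000 cells, which at this depth equals counts per 1e+06 UMIs (CPM). Decr2 itself, over all kept cells and all UMIs, stood at 5.14 CPM (control) and 4.41 CPM (knockdown), with a ratio of 0.857 (0.702 to 1.05). In cells with melanoma markers it had 19 against 9 UMIs, a ratio of 0.547 (0.218 to 1.27), so these counts do not resolve the knockdown. The libraries shared 34 barcodes, and leaving them out moved none of the sums, shares and member ratios beyond its interval.

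Cells were placed in classes by marker genes among their 1000 UMIs, and 10 classes had at least 50 cells in each library. CD8 T gated cells (a T cell marker and Cd8a or Cd8b1) numbered 1181 among control and 841 among knockdown cells. Other T gated cells (T markers with no UMI of Cd8a, Cd8b1, Cd4 or Foxp3) numbered 1088 and 767, natural killer (NK) gated cells 1384 and 1020, and monocyte-macrophage gated cells 1398 and 1028. The regulatory T, CD4 T, B, conventional dendritic, plasmacytoid dendritic and melanoma gates were smaller, with 51 to 216 cells. NK markers came to 3.83 and 3.99 UMIs per NK gated cell against 0.0390 and 0.0250 per CD8 T gated cell. Of the thinned cells, 31.9% and 34.2% met no gate. Melanoma gated cells were present although the labels describe a CD45 sort, and whether they carried CD45 was not tested.

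Replication RNA was most abundant in CD8 T gated cells. Their summed S-phase level was 2084 (2002 to 2168) UMIs per 1000 cells in the control library and 2112 (2015 to 2212) in the other, above the interval of each of the other 9 classes in both libraries. Melanoma and other T gated cells came next, at 1411 and 1286 in the control library and 1342 and 1493 in the knockdown one, and these classes did not differ beyond counting error in either. The other T gate was mixed, as 36.9% (control) and 46.3% (knockdown) of its cells held a UMI of Cd8a or Cd8b1 outside the 1000 drawn. Those cells had 2.26 and 2.18 S-phase UMIs per cell, against 0.718 and 0.9005 in other T gated cells without such a UMI. Cells with such a UMI were also deeper before thinning, at medians of 7226 against 2463 UMIs in control and 10131 against 4078.5 in knockdown cells. The part of depth in this gap was not tested. Regulatory T gated cells were at 1056 and 1065 and CD4 T gated cells at 1058 and 922. NK gated cells were at 639 (597 to 682) and 668 (618 to 720), B gated cells at 481 and 601, and conventional dendritic gated cells at 459 and 448. Monocyte-macrophage gated cells, at 363 and 384, and plasmacytoid dendritic gated cells, at 321 and 328, were lowest and did not differ beyond counting error.

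**Figure D1:**
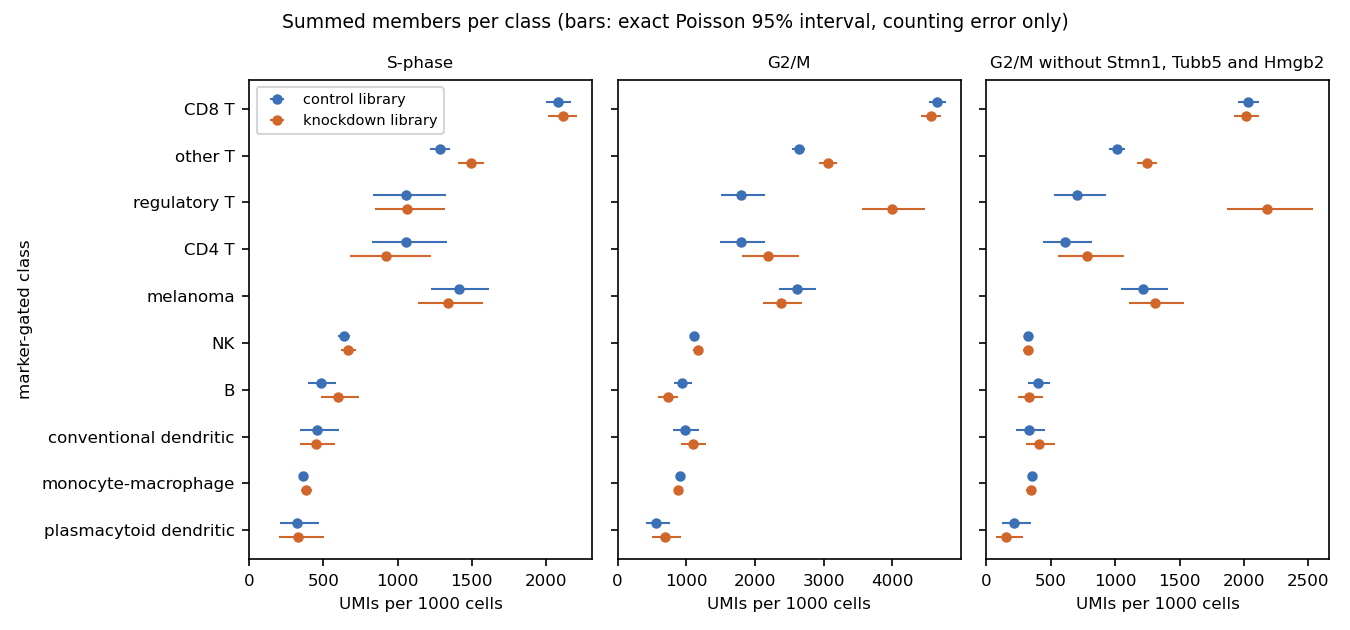
Summed S-phase, G2/M and 21 narrower G2/M members per marker-gated class, in UMIs per 1000 cells, with the control and knockdown libraries as separate points and exact Poisson 95% bars. CD8 T gated cells lie farthest to the right for S phase in both libraries (2084 and 2112). In the narrower G2/M panel the knockdown point of regulatory T gated cells (2182) lies beyond that of CD8 T gated cells (2017), and regulatory T gated cells are the class whose G2/M points lie farthest apart (1803 and 4000).

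The G2/M sum was 4655 (4533 to 4780) and 4566 (4423 to 4713) in CD8 T gated cells, 2637 and 3063 in other T, 1803 and 4000 in regulatory T, 1111 and 1168 in NK, and 902 and 882 in monocyte-macrophage gated cells. In CD8 T, other T, NK and monocyte-macrophage gated cells most G2/M UMIs came from Stmn1, Tubb5 and Hmgb2, which code for a tubulin-binding protein, a tubulin and a chromatin protein and are also present in cells outside division. Without these 3 the G2/M level was 2033 and 2017 (1922 to 2115) in CD8 T gated cells, 704 and 2182 (1864 to 2538) in regulatory T, 324 and 324 in NK, 355 and 348 in monocyte-macrophage, and 218 and 156 in plasmacytoid dendritic gated cells. In the knockdown library regulatory T gated cells thus had the highest value, with an interval that overlapped that of CD8 T gated cells. The ratio of CD8 T to NK gated cells was then 6.27 in control and 6.23 in knockdown cells, against 3.26 and 3.16 for the S-phase sum. With the 3 genes kept, the G2/M ratio was 4.19 and 3.91. No S-phase member was set aside, although Slbp, for example, differed little between these classes (ratios of 1.26 and 1.03). CD8 T gated cells thus stood farther above NK gated cells in the G2/M than in the S-phase sum, by an amount that depends on the genes kept.

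Member by member, the level was higher in CD8 T than in NK gated cells in both libraries for 45 of 45 members, and the same held against monocyte-macrophage, B and conventional dendritic gated cells. The intervals were apart in both libraries for 38 of 45 members against NK gated cells (84.4%), beside 6.81% of the 9091 genes with at least 20 UMIs in these classes. The other 7 were Mcm4, Cdc6, Cdc45, Fen1, Slbp, Ccne2 and Aurka. Against other T gated cells the intervals were apart in both libraries for 14 of 45 members (31.1%), beside 1.39% of 8825 genes. The other T gate includes the cells with a CD8 UMI outside those drawn, and their part in this comparison was not tested. CD8 T was the class with the highest level for 33 of 45 members in control and 24 of 45 in knockdown cells. In the latter, 9 members peaked in regulatory T and 8 in melanoma gated cells.

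**Figure D2:**
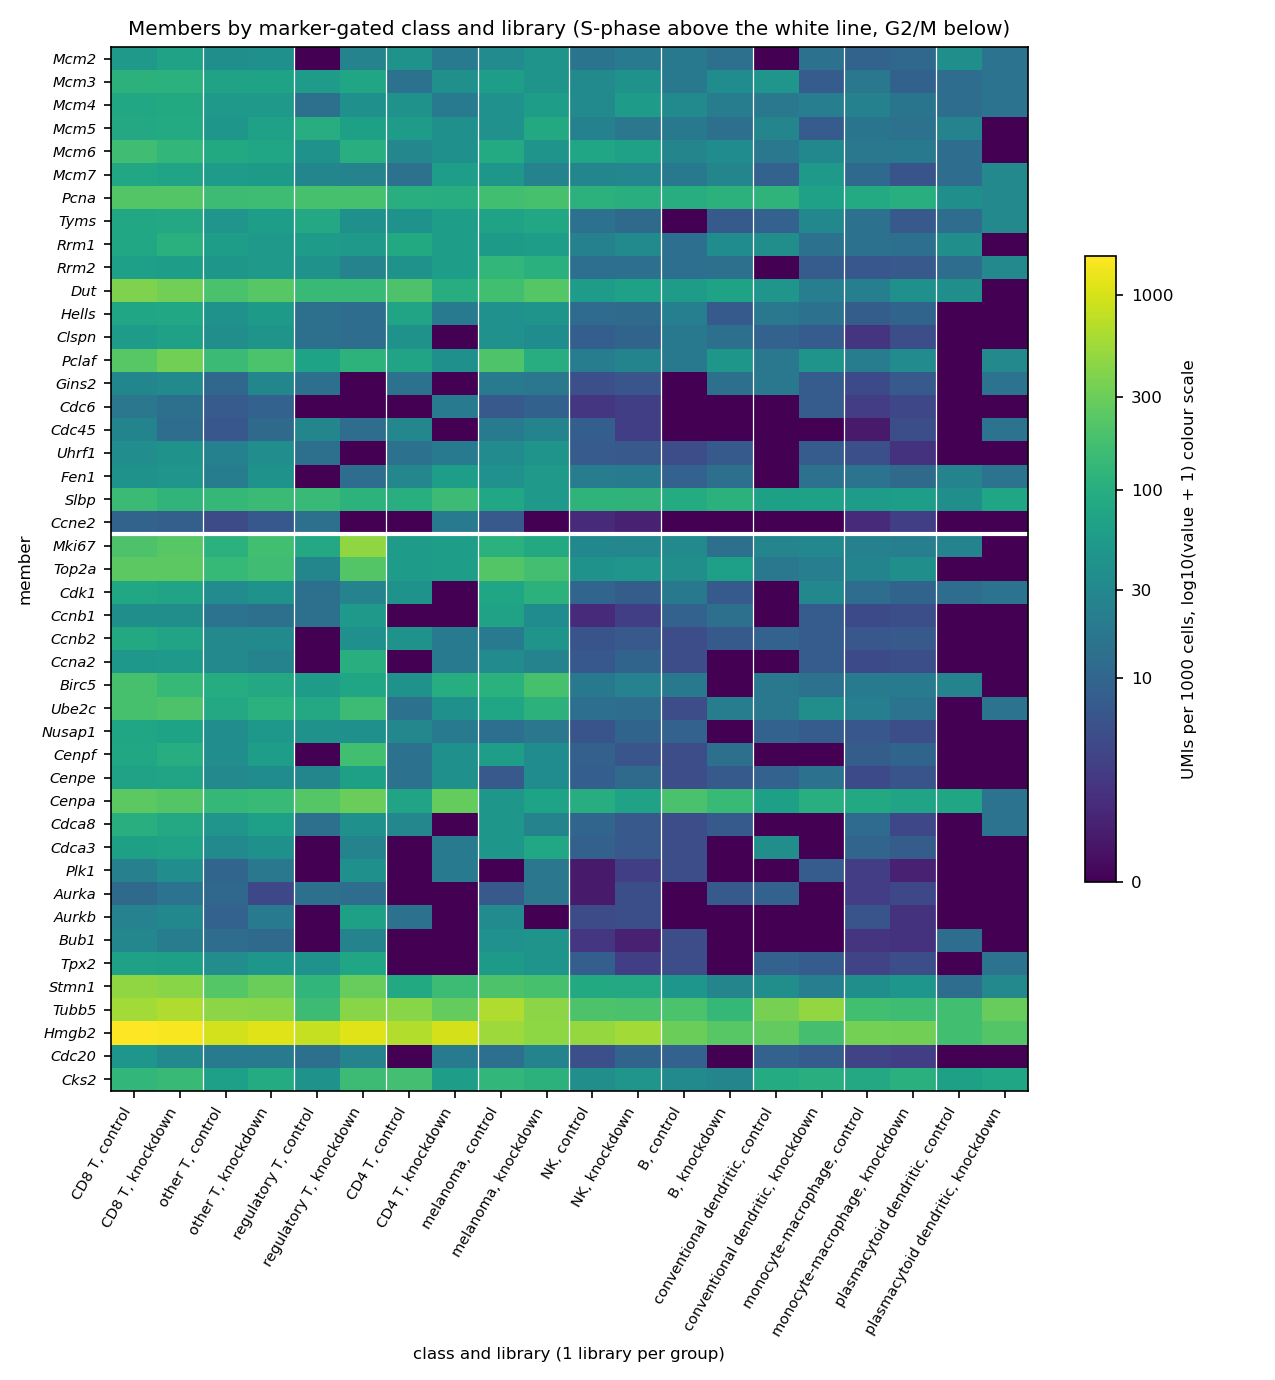
Level of each of the 45 members in 10 marker-gated classes and both libraries, in UMIs per 1000 cells on a colour scale of log10(value + 1). S-phase members lie above the white line and G2/M members below it, and 33 of 45 control and 24 of 45 knockdown rows are highest in CD8 T gated cells.

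Among the replication genes, Mcm6, a subunit of the MCM helicase, was at 163 and 132 UMIs per 1000 cells in CD8 T, 74.4 and 66.7 in NK, and 17.9 and 18.5 in monocyte-macrophage gated cells. Mcm3, another subunit, was at 114 and 109 in CD8 T, 33.2 and 43.1 in NK, and 17.9 and 8.76 in monocyte-macrophage gated cells. Cdc6, which loads the helicase, had only 21 and 12 UMIs in CD8 T gated cells, and Ccne2, a cyclin of S-phase entry, 11 and 7. Both are therefore read here from few molecules. Pcna, the clamp that holds polymerases on DNA, was at 220.2 and 219 in CD8 T, 113 and 103 in NK, and 88.7 and 102 in monocyte-macrophage gated cells. Pclaf, which codes for a factor that binds this clamp, was at 235 and 327 in CD8 T against 21.7 and 26.5 in NK gated cells, ratios of 10.8 and 12.4. The clamp was thus 1.94 and 2.13 times as high in CD8 T as in NK gated cells, and its partner more than that in both libraries.

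The genes of nucleotide supply also stood farther apart between these classes than Pcna. Dut, which clears dUTP, was at 384 and 327 in CD8 T, 56.4 and 66.7 in NK, and 22.9 and 38.9 in monocyte-macrophage gated cells. Tyms, thymidylate synthase, was at 83.0 and 84.4 in CD8 T and at 14.5 and 11.8 in NK gated cells. Rrm2, the S-phase subunit of ribonucleotide reductase, was at 63.5 and 61.8 in CD8 T and at 13.7 and 13.7 in NK gated cells. Slbp, which binds histone messages, was the member with the smallest gap. It stood at 151 and 124 in CD8 T and at 119.9 and 119.6 in NK gated cells, ratios of 1.26 and 1.03.

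Among the mitotic genes, Mki67, which coats mitotic chromosomes and codes for the Ki-67 antigen, was at 199 and 234 UMIs per 1000 cells in CD8 T, 30.4 and 29.4 in NK, and 24.3 and 22.4 in monocyte-macrophage gated cells. Top2a, the topoisomerase that untangles copied DNA, was at 244 and 245 in CD8 T, 41.9 and 46.1 in NK, and 26.5 and 37.9 in monocyte-macrophage gated cells. Ube2c, the conjugating enzyme of the anaphase-promoting complex, was at 182 and 201 in CD8 T and at 13.7 and 12.7 in NK gated cells, ratios of 13.3 and 15.8. These 3 genes separated CD8 T from NK gated cells in both libraries, without overlap of their intervals.

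Of the cyclins and kinases, Ccnb2, a B cyclin, was at 85.5 and 73.7 in CD8 T and at 5.78 and 6.86 in NK gated cells. Cdk1, the kinase that it drives, was at 82.1 and 73.7 against 10.1 and 7.84. Plk1, the Polo kinase of mitosis, was at 23.7 and 35.7 against 0.723 and 2.94, the NK values resting on 1 and 3 UMIs. Cenpa, the histone that marks centromeres, was present outside T cells as well, at 246 and 222 in CD8 T, 96.8 and 69.6 in NK, and 88.0 and 72.0 in monocyte-macrophage gated cells. Hmgb2 was at 1581 and 1463 in CD8 T, 499 and 572 in NK, and 341 and 326 in monocyte-macrophage gated cells.

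A cell was called cycling when its 1000 UMIs held at least 2 of the 42 members that remain without Stmn1, Tubb5 and Hmgb2. The share was 56.3% (53.4 to 59.2) in control and 57.1% (53.7 to 60.4) in knockdown CD8 T gated cells. It was 35.9% and 42.2% in other T, 33.8% and 45.5% in regulatory T, 41.1% and 42.1% in melanoma, 22.8% and 23.7% in NK, 23.1% and 23.1% in B, and 11.9% and 12.0% in monocyte-macrophage gated cells. In plasmacytoid dendritic gated cells, the lowest class, it was 6.41% (2.11 to 14.3) and 6.25% (1.73 to 15.2), from 5 and 4 cells. This class gives only a rough guide to the background from free RNA. How high that background was in shallower classes was not tested. Among these were B and NK gated cells, at medians of 1577.5 and 2322 UMIs in the control library. The plasmacytoid cells were not shallow, with medians of 4121 and 6538 UMIs against 5307 and 9470 in CD8 T gated cells.

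The share depends on depth and on the members counted. Without thinning, at least 2 of the 42 members were found in 84.3% and 94.1% of CD8 T, 55.6% and 78.1% of NK, and 65.4% and 79.7% of plasmacytoid dendritic gated cells, so unthinned shares were not compared. With all 45 members the thinned share was 71.5% and 68.6% in CD8 T and 19.2% and 23.4% in plasmacytoid dendritic gated cells. In CD8 T gated cells 258 control and 173 knockdown cells held exactly 1 of the 42, and 144 and 113 exactly 2, so many cells lie beside the boundary. The pair Mki67 or Top2a was seen in 23.3% and 25.8% of CD8 T, 5.78% and 6.86% of NK, and 3.93% and 5.06% of monocyte-macrophage gated cells. In plasmacytoid dendritic gated cells the pair was seen in 2 of 78 control cells, 2.56% (0.312 to 8.96), and in 0 of 64 knockdown cells. Top2a alone was seen in 0 of 78 and 0 of 64 of these cells, which allows shares up to 4.62% and 5.60% (Clopper-Pearson).

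Cycling CD8 T gated cells were also RNA-rich before thinning. In CD8 T gated cells the median was 8453 UMIs in control cells with at least 2 of the 42 members and 3372 in those with none. In the knockdown library these medians were 13678 and 6392.5. NK gated cells showed no such gap, at 2307 against 2372.5 in control and 3423.5 against 3655 in knockdown cells. Other T gated cells did show one, at 6699 against 2664 and 11425.5 against 4475.5. Regulatory T gated cells were at 2813 against 3177 and 5074 against 4379, and melanoma gated cells at 6659.5 against 2157 and 2700 against 3265.5.

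The S-phase share of member UMIs differed between classes. Without the 3 broad genes, S-phase members made up 50.6% of member UMIs in control and 51.2% in knockdown CD8 T gated cells. The shares were 66.3% and 67.4% in NK, 56.0% and 54.5% in other T, and 50.6% and 52.5% in monocyte-macrophage gated cells. Broad genes were set aside in the G2/M list only, so the gap between classes depends on that choice. With all members the shares were 30.9% and 31.6% in CD8 T, 36.5% and 36.4% in NK, and 32.8% and 32.8% in other T gated cells. Monocyte-macrophage gated cells were then at 28.7% and 30.3%. Single cells often held both: 42.8% of control and 44.6% of knockdown CD8 T gated cells had a UMI of each list. A further 24.7% and 22.8% had S-phase members alone, and 10.6% and 10.2% narrower G2/M members alone. In NK gated cells both lists were found in 11.6% and 13.0%, and S-phase members alone in 31.6% and 33.4%. Among cycling cells, G2/M UMIs outnumbered S-phase UMIs in 37.9% and 33.5% of CD8 T but in 13.3% and 13.6% of NK gated cells.

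The members could be ordered within CD8 T gated cells by the company they kept. For each member, the G2/M share of the UMIs of the other members was taken in the cells that held it, minus the same share in all CD8 T gated cells. The UMIs of Stmn1, Tubb5 and Hmgb2 were left out of these shares. All 24 G2/M members lay above 0 in both libraries, from 3.51 to 21.5 points in control and from 3.88 to 24.2 in knockdown cells. Of the 21 S-phase members, 14 lay below 0 in both. The 2 lists were defined from textbook roles, so this shows that the RNA of single cells followed them.

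Cdc6 had the lowest mean over the libraries, at -12.7 and -13.6 points, from 20 and 12 cells. Ccne2 came next, at -17.1 and -2.79 from 11 and 7 cells. Gins2, a subunit of the active helicase, was at -11.8 and -7.66, and Mcm3 at -9.01 and -10.7. Hells, a chromatin remodeller, was at -7.69 and -9.22, and Pcna at -4.80 and -5.24. In cells that held these genes, G2/M members thus made up a smaller share of the other members' UMIs than in all CD8 T gated cells. The amount of mitotic RNA per cell was not compared.

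Rrm1, Rrm2, Pclaf, Tyms and Cdc45 are listed as S-phase members but lay above 0 in both libraries. Pclaf was at 5.08 and 2.29 points, Rrm2 at 5.47 and 1.86, and Tyms at 5.23 and 3.97. They stood close to the G2/M members with the lowest values, such as Hmgb2 at 3.51 and 3.88 and Stmn1 at 3.65 and 5.08. In the middle came Top2a at 9.15 and 7.12 and Mki67 at 11.2 and 11.2. The highest means over the libraries were those of Plk1, Cdc20, Cenpf and Ube2c. Ube2c was at 19.6 and 18.5, Cenpf, a centromere protein, at 21.5 and 16.6, Cdc20, the activator of the anaphase-promoting complex, at 15.99 and 24.2, and Plk1 at 17.2 and 23.4. Ccnb1, a B cyclin, came next at 11.2 and 21.8. In NK gated cells only 10 members of each list were held by cells with at least 20 UMIs of other members in each library, a minimum chosen after seeing the data. Of these, 7 of 10 G2/M members lay above 0 in both libraries and 0 of 10 S-phase members below 0 in both.

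**Figure D3:**
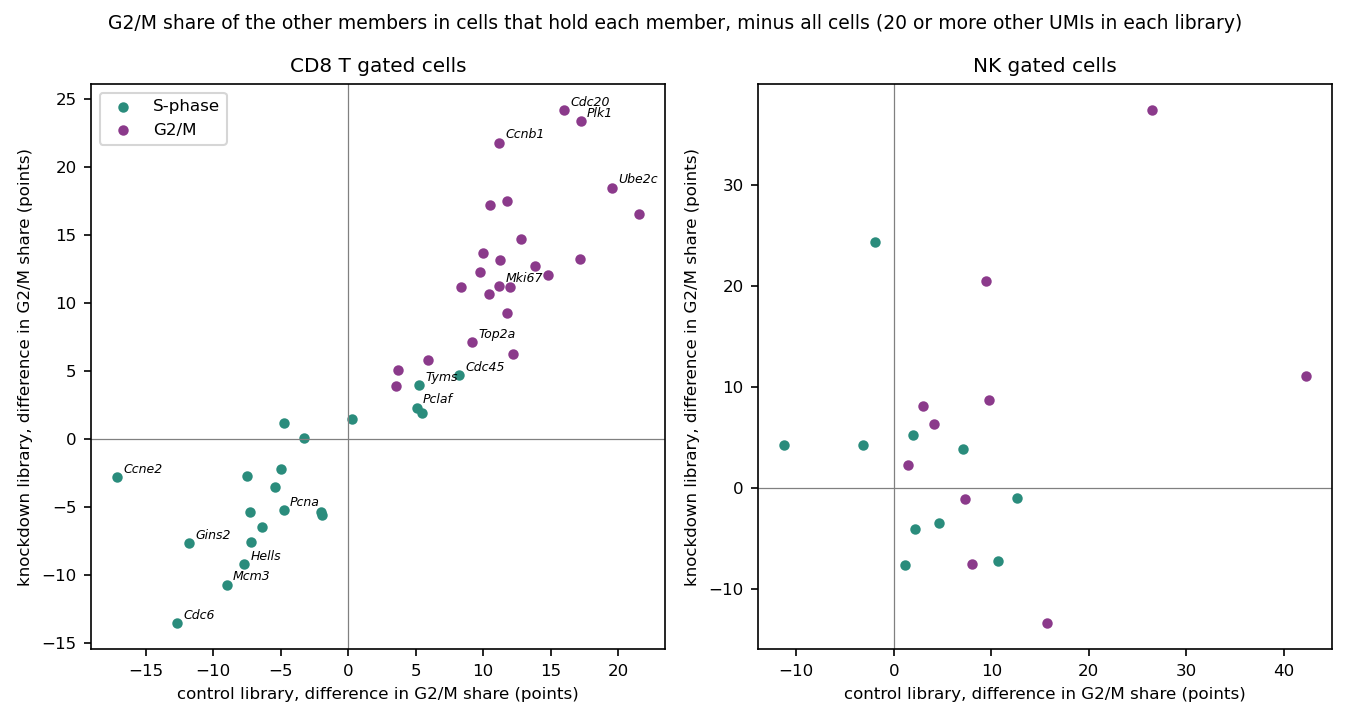
Difference in the G2/M share of the other members' UMIs, in percentage points, between cells holding each member and all cells of the class, with the control library on the x axis and the knockdown library on the y axis. The UMIs of Stmn1, Tubb5 and Hmgb2 are left out of the share. In CD8 T gated cells all 24 G2/M members lie above 0 on both axes and 14 of 21 S-phase members below 0 on both, while in NK gated cells 7 of 10 G2/M members lie above 0 on both and 0 of 10 S-phase members below. Members held by cells with fewer than 20 UMIs of other members in either library are left out.

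Other genes of division followed the members. CD8 T gated cells with at least 3 of the 42 members (521 control and 367 knockdown) were set beside those with none (258 and 188). Of 51 other mitosis genes, 36 in control and 27 in knockdown cells had at least 20 UMIs in these cells, and the interval of the ratio lay above 1 for 33 and 27, beside 14.8% of 4529 and 16% of 3569 genes that are no members. Kif11, the motor that pushes spindle poles apart, was at 134 against 3.88 UMIs per 1000 control cells and 142 against 5.32 per 1000 knockdown cells. Of 38 other replication genes, 25 and 21 had enough UMIs and 22 and 19 lay above 1. Lig1, the ligase that joins new DNA fragments, was 16.2 and 9.22 times as high in the cells with members, and Gmnn, which blocks a second round of replication, 6.72 and 5.33 times. Of 16 chromatin and tubulin genes, 15 of 15 and 14 of 15 lay above 1, among them Tuba1b, an alpha tubulin, at 8.64 and 10.4 times.

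The lists of genes that control the cycle followed less evenly. Of 14 genes for E2F, RB and DREAM factors, 6 and 5 had enough UMIs, with median ratios of 1.49 and 2.56. The intervals of 1 and 2 lay above 1, with Tfdp1, the partner of E2F proteins, in both libraries at 5.82 and 3.33 times. The minimum left out genes such as E2f1, with 18 against 1 UMIs in control and 15 against 0 in knockdown cells. It also left out Rb1, with 9 against 8 and 16 against 0. Of the D-type cyclins and G1 kinases, Cdk4 lay above 1 at 2.76 (1.68 to 4.77) and 3.13 (1.53 to 7.21) times. Ccnd2, a D cyclin, lay below 1 at 0.515 (0.341 to 0.779) and 0.379 (0.236 to 0.603). Of the kinase inhibitors and quiescence genes, 7 had enough UMIs in each library, 0 lay above 1, and 4 lay below 1 in both, beside 9.83% and 8.27% of the genes that are no members. These were Cdkn1b, the p27 inhibitor, at 0.470 and 0.493, Btg1 and Btg2, antiproliferative genes, at 0.306 and 0.279 and at 0.466 and 0.384, and Klf2, a factor of resting T cells, at 0.245 and 0.280. The cells with members were also the deeper ones before thinning, and its part in these ratios was not tested.

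Within CD8 T gated cells, fewer cells with RNA of the stem-like T cell factor Tcf7 were cycling than cells without. Of control cells with a UMI of Tcf7 26.0% were cycling against 57.6% of those without, a difference of -31.6 points (-42.2 to -17.8) over 50 and 1131 cells. In the knockdown library the shares were 28.8% and 59.2%, a difference of -30.4 points (-40.9 to -17.4). The direction was the same in both libraries. Cells with Tcf7 were also shallower, with medians of 2912 against 5559 and 5327 against 10196.5 UMIs, and the part of this gap was not tested.

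No checkpoint receptor gene examined divided the cells beyond counting error in both libraries. Cells with a UMI of Pdcd1, the gene of PD-1, were cycling in 60.5% against 55.1% without in the control, a difference of 5.44 points (-1.34 to 12.0). In the knockdown library the shares were 68.8% and 53.2%, a difference of 15.5 points (7.88 to 22.6), and the difference between the libraries was not tested. Cells with Pdcd1 were the deeper ones, with medians of 6474.5 against 4761 and 12456.5 against 8220 UMIs, and the part of depth was not tested. For Havcr2, the gene of TIM-3, and Lag3 the intervals of the difference covered 0 in both libraries, from -6.95 to 15.5 and from -9.79 to 15.6 points for Havcr2.

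In monocyte-macrophage gated cells, cells with a UMI of C1qa, a complement gene of tissue macrophages, were cycling in 30.8% against 10.95% without, a difference of 19.8 points (9.77 to 31.9) over 65 and 1333 cells. The knockdown library gave 32.7% against 10.9%, a difference of 21.8 points (10.5 to 35.5). Cells with Ly6c2, a gene of inflammatory monocytes, were cycling in 7.79% against 14.97% and in 6.81% against 16.8%. Cells with C1qa were not the deeper ones, at medians of 3599 against 4539 and 4275.5 against 6752.5 UMIs. In NK gated cells no split by Klrg1, Xcl1, Ctla2a or Gzmc gave an interval apart from 0 in either library.

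**Figure D4:**
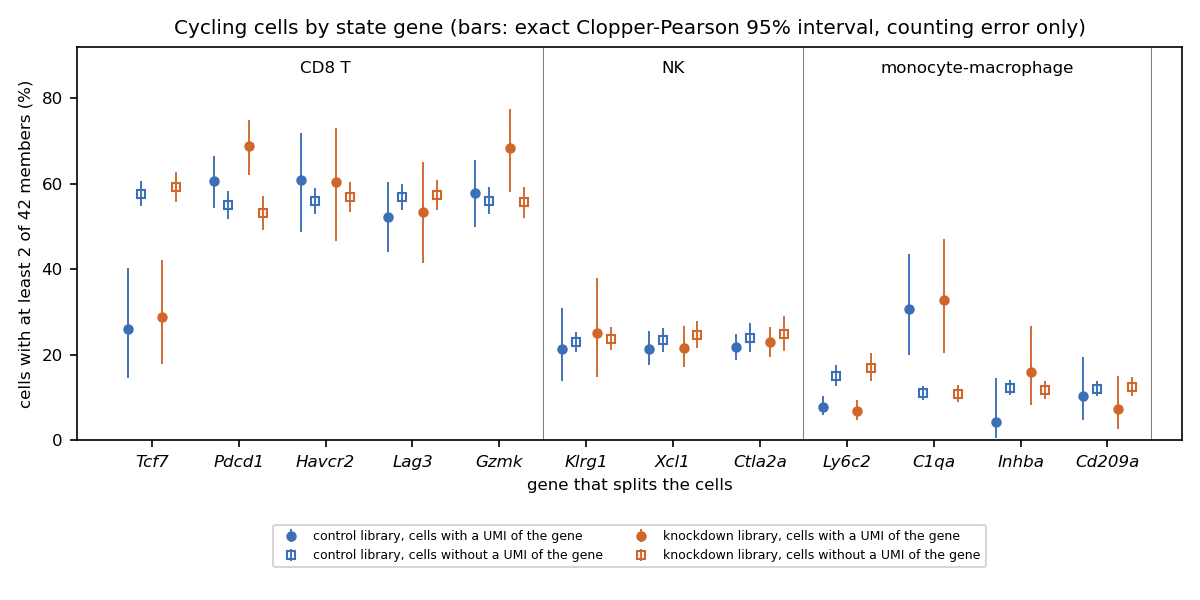
Percent of cells with at least 2 of the 42 members, for cells with (filled) and without (open) a UMI of the gene named on the x axis, in each library, with exact Clopper-Pearson 95% bars. CD8 T gated cells with Tcf7 (26.0% and 28.8%) lie below those without, and monocyte-macrophage gated cells with C1qa (30.8% and 32.7%) lie above.

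Between the libraries, the intervals of the summed ratios covered 1 in CD8 T, NK and monocyte-macrophage gated cells. The ratio of knockdown to control in CD8 T gated cells was 1.01 (0.953 to 1.08) for the S-phase sum and 0.981 (0.941 to 1.02) for the G2/M sum. It was 1.05 (0.944 to 1.16) and 1.05 (0.973 to 1.13) in NK gated cells, and 1.06 (0.925 to 1.21) and 0.978 (0.897 to 1.07) in monocyte-macrophage gated cells. The cycling share in CD8 T gated cells differed by 0.767 points (-3.62 to 5.13). These intervals hold for 1 drawing of the cells. When the gates were read on all UMIs, the CD8 T ratios were 0.806 and 0.776. These gates took 1035 and 537 CD8 T cells, of which 710 and 343 were also among the 1181 and 841. At 500 UMIs per cell the CD8 T ratios were 1.10 and 1.22. With all UMIs summed, the NK ratios turned to 0.925 (0.876 to 0.977) and 0.945 (0.907 to 0.985), and the CD8 T ratio of the G2/M sum was 0.943 (0.933 to 0.954). Those of monocyte-macrophage gated cells were then 1.07 (1.01 to 1.13) and 0.953 (0.921 to 0.987), and with another random thinning their G2/M ratio was 1.16 (1.06 to 1.27) and the CD8 T S-phase ratio 0.930 (0.874 to 0.989). Differences of this size thus moved with the processing.

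Single members were counted as higher at 25% or more above the control, or lower at 20% or more below it, among those with at least 50 thinned UMIs over both libraries. In CD8 T gated cells 4 of 41 members were higher in the knockdown library, beside 12.8% of all 4638 genes tested, and 3 were lower, beside 14.6%. The median log2 ratio of the 41 was 0.02, and that of all genes -0.01. The higher ones were Mcm2, Rrm1, Pclaf and Plk1, and the lower ones Birc5, the survivin gene of cytokinesis, Bub1, a checkpoint kinase, and Cdc20. Pclaf had 277 control and 275 knockdown UMIs, a ratio of 1.39 (1.18 to 1.65), but 1.05 with all UMIs summed. Birc5 had 219 and 117, a ratio of 0.750 (0.594 to 0.943), and 0.889 with all UMIs. With all UMIs, 0 of 45 members were higher, beside 7.8% of 9592 genes, and 1 was lower, Cdc20 at 0.792, beside 8.57%. The share of members called was thus near or under that of all genes. Of the 7 named, Mcm2, Rrm1, Plk1, Birc5 and Cdc20 changed direction under at least 1 alternative, such as Birc5 at 1.27 with 500 UMIs per cell.

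In NK gated cells 4 of 19 members were higher (Mcm3, Mcm4, Rrm1 and Birc5), beside 15.6% of 5364 genes, and 2 were lower (Mcm5 and Cenpa), beside 11.2%. In monocyte-macrophage gated cells 3 of 12 were higher (Dut, Pclaf and Top2a), beside 15% of 5205 genes, and 1 was lower (Mcm4), beside 13.5%. Only these 19 and 12 of the 45 members passed the minimum, and with another random thinning Mcm5 in NK and Mcm4 and Top2a in monocyte-macrophage gated cells changed direction. With all UMIs summed the balance in NK gated cells was the opposite. Of 35 members 1 was higher (Ccna2), beside 11.1% of 8249 genes, and 9 were lower, beside 10.2%, namely Mcm5, Rrm2, Hells, Clspn, Uhrf1, Mki67, Cdk1, Ube2c and Tpx2. In monocyte-macrophage gated cells 0 of 40 were then higher, beside 8.51% of 9223 genes, and 4 were lower (Mcm4, Ccnb1, Cdca8 and Aurkb), beside 10.6%. Cenpa in NK gated cells was at 0.719 (0.531 to 0.966) after thinning and at 0.966 with all UMIs. Mki67 was at 0.969 (0.586 to 1.59) in NK gated cells, 0.636 (0.494 to 0.817) with all UMIs, and at 0.920 (0.517 to 1.61) in monocyte-macrophage gated cells.

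**Figure D5:**
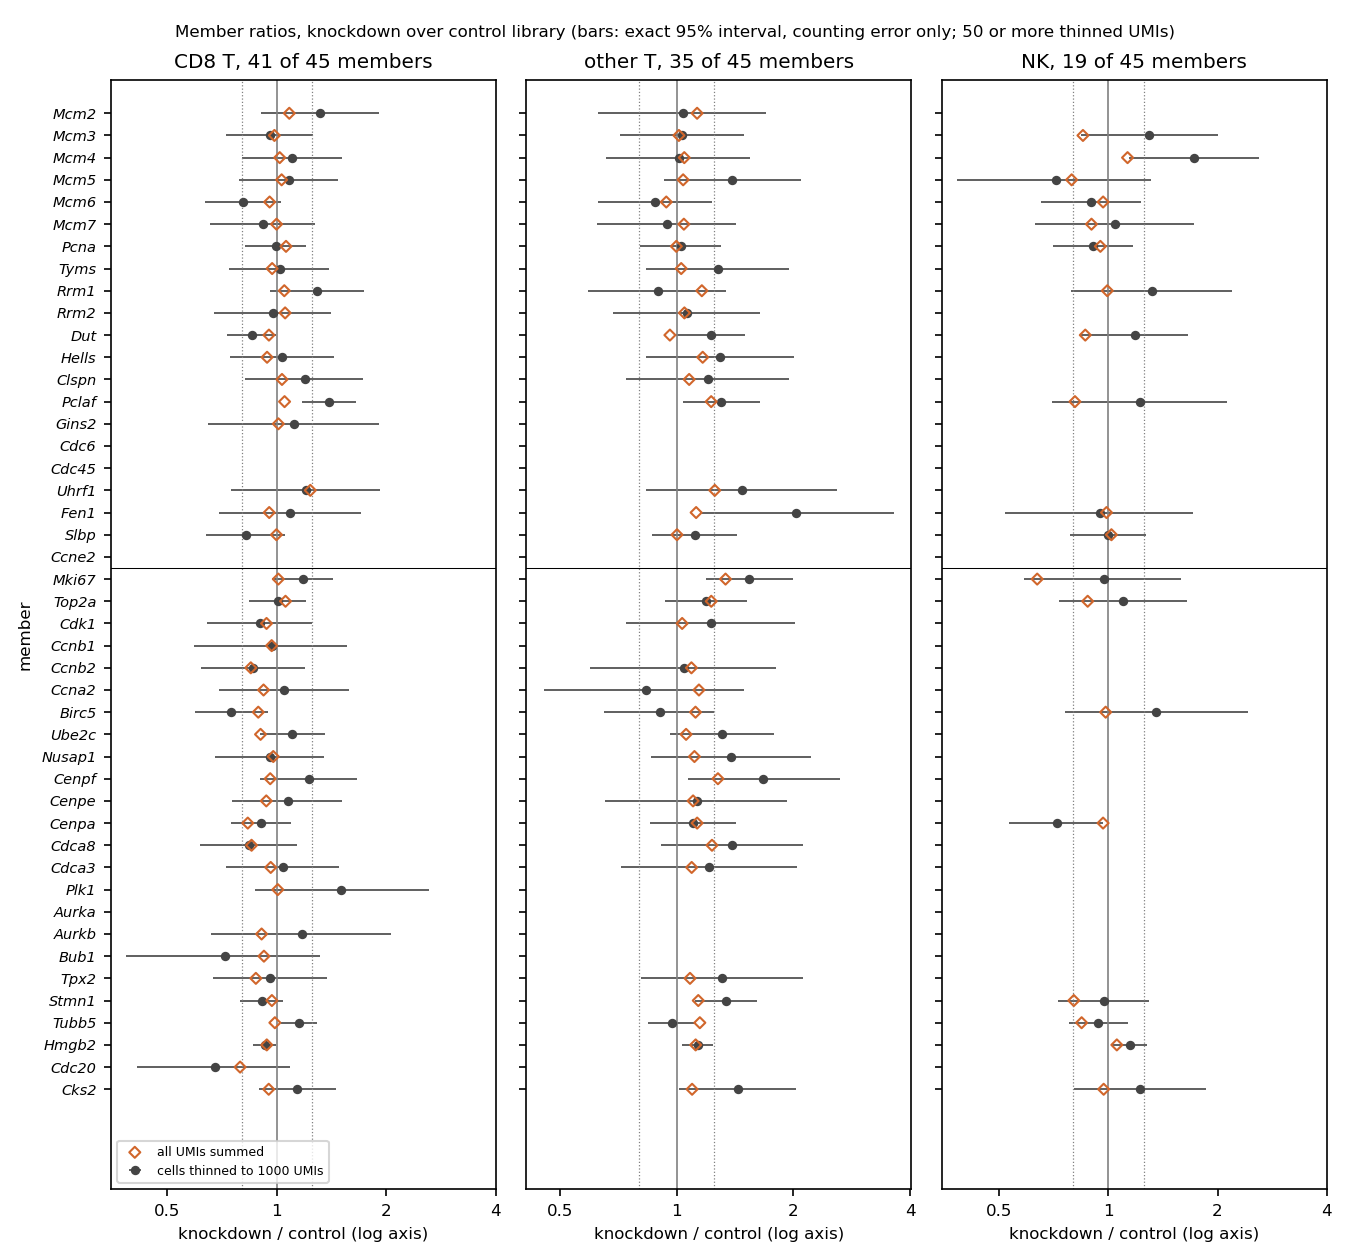
Ratio of knockdown to control on a log axis for the members with at least 50 thinned UMIs in CD8 T, other T and NK gated cells, with exact 95% bars, and diamonds for the ratio with all UMIs summed. In other T gated cells 29 of 35 members lie above 1, whereas in CD8 T gated cells 22 lie above and 19 below.

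Other T gated cells of the knockdown library held more RNA of both phases. Their ratio was 1.16 (1.07 to 1.26) for the S-phase sum and 1.16 (1.10 to 1.23) for the G2/M sum, and 1.06 and 1.14 with all UMIs summed. The cycling share was 6.30 points higher (1.80 to 10.8). Counted over all 45 members it differed by 2.54 points (-2.12 to 7.12) at 2000 UMIs per cell and by -0.313 points (-6.95 to 6.46) with gates on all UMIs. Of 35 members tested, 14 were higher, beside 14.7% of all 4545 genes, and 0 were lower, beside 12.6%. The median log2 ratio of the 35 was 0.27, and that of all genes 0.01. With all UMIs summed, 5 of 45 were higher (Cdc45, Uhrf1, Ccne2, Mki67 and Cenpf), beside 8.73% of 9155 genes, and 0 were lower, beside 8.72%.

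The 14 were Mcm5, Tyms, Hells, Pclaf, Uhrf1 and Fen1 of the S-phase list, and Mki67, Ube2c, Nusap1, Cenpf, Cdca8, Tpx2, Stmn1 and Cks2 of the G2/M list. Mki67 stood at 108 UMIs per 1000 control cells (118 UMIs) and 167 per 1000 knockdown cells (128 UMIs), a ratio of 1.54 (1.19 to 1.99), and 1.34 with all UMIs. Cenpf was at 35.8 and 59.97, a ratio of 1.67 (1.07 to 2.63), and 1.28 with all UMIs. Pclaf was at 149.8 and 196, a ratio of 1.31 (1.04 to 1.64), and 1.23 with all UMIs. Fen1, the flap endonuclease of replication, had a ratio of 2.04 (1.16 to 3.63) that was 1.12 with all UMIs. Mki67 and Cenpf were thus 25% or more higher on both counts, and Pclaf and Fen1 only after thinning. Under every alternative run, 7 of the 14 stayed above 1 (Tyms, Pclaf, Uhrf1, Mki67, Cenpf, Tpx2 and Cks2). The other 7 fell to 1 or below under at least 1 alternative, such as Stmn1 at 0.475 and Hells at 0.350 with gates on all UMIs.

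The share of cells in this gate with a CD8 UMI outside those drawn also differed between the libraries. A UMI of Cd8a or Cd8b1 was present among all UMIs, though not among the 1000 drawn, in 401 of the 1088 control cells (36.9%) and in 355 of the 767 knockdown cells (46.3%). Median depth was 2956.5 and 5251 UMIs. A deeper cell gives more UMIs in which a CD8 UMI can be seen, and the part of depth in these shares was not tested. In the cells with a CD8 UMI, 63.3% and 58.0% were cycling, and the ratios of the S-phase and G2/M sums were 0.965 (0.876 to 1.06) and 0.960 (0.898 to 1.03). In the 687 and 412 cells without one, 19.9% and 28.6% were cycling, a difference of 8.70 points (3.49 to 14.0), and the ratios were 1.255 (1.09 to 1.44) and 1.27 (1.15 to 1.39). The part of the depth gap in that difference was not tested.

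Regulatory T gated cells, 71 from the control and 77 from the knockdown library, differed in the G2/M list. The S-phase sum gave a ratio of 1.01 (0.728 to 1.40), but 1.47 (1.10 to 1.97) with up to 20% mitochondrial UMIs, and the G2/M sum 2.22 (1.80 to 2.75). Mki67 had 6 control and 36 knockdown UMIs, a ratio of 5.53 (2.31 to 16.1), Top2a 2 and 17, and Tubb5 11 and 33. Cenpf had 0 and 13, and Ccna2, the cyclin of S phase and G2, 0 and 8. Few cells carried these UMIs: the richest knockdown cell held 44.4% of the Mki67 UMIs, and for Cenpf 53.8%. Mki67 or Top2a was seen in 9.86% (4.06 to 19.3) and 22.1% (13.4 to 33.0) of the cells.

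Without the cell richest in G2/M UMIs in each library the G2/M ratio was 2.32 (1.85 to 2.92). It was 1.71 with another random thinning, 1.37 at 2000 UMIs per cell, 1.08 at 500, and 1.04 with gates on all UMIs, which took 95 and 112 cells of which 41 and 40 were the same. The size of the difference therefore rests on which cells the gate takes. The cycling share differed by 11.7 points (-4.07 to 26.5).

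In B gated cells, 216 and 143, the S-phase sum gave a ratio of 1.249 (0.928 to 1.68) and the G2/M sum 0.770 (0.602 to 0.980), the latter 0.898 (0.770 to 1.05) with all UMIs. Their cycling share was 23.1% in both. In melanoma gated cells the sums gave 0.951 (0.767 to 1.18) and 0.914 (0.780 to 1.07), and 0.860 (0.827 to 0.895) and 0.9004 (0.875 to 0.927) with all UMIs. Whether these were tumour cells or other cells with tumour RNA was not tested. The CD4 T and both dendritic gates had intervals that covered 1 for both sums after thinning. With all UMIs the CD4 T ratio of the G2/M sum was 1.35 (1.22 to 1.49) against 1.22 (0.938 to 1.59), and the conventional dendritic ratio of the S-phase sum turned to 1.65 (1.41 to 1.93) from 0.976 (0.659 to 1.45).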

How the data were processed

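Single-cell RNA (10x Genomics 3′ v2) was measured in 1 control and 1 knockdown library. The deposited matrices hold raw UMI counts per gene and barcode, and the submitters' processing notes name mm10, Cell Ranger 6.1.2 and Seurat 4.3. The deposited counts were whole numbers, with at least 500 UMIs per barcode. The sources used here give no Cell Ranger settings and no annotation release.

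Cells were kept with at least 200 genes, 500 UMIs and at most 10% mitochondrial UMIs. Doublets scored by Scrublet (scanpy 1.11.5) were removed at 0.8% per 1000 barcodes, which marked 9.07% of control and 7.63% of knockdown barcodes. Each cell was thinned once to 1000 UMIs, leaving out 441 (4.93%) and 413 (5.99%) shallower cells. A class needed 2 markers of its lineage (for T cells, 1 beside a CD8, CD4 or regulatory T gene) and fewer than 2 of other lineages; a regulatory T cell needed Foxp3, or Il2ra with Ikzf2. Monocyte and dendritic markers were allowed to overlap.

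Levels carry exact Poisson intervals, shares Clopper-Pearson, ratios conditional binomial and differences of shares Newcombe intervals (scipy 1.17.1, numpy 2.4.6, pandas 2.3.3, Python 3.11.15). These bear on counting error and on nothing else. No test was run, as each group is 1 library. The ratio step was tested on simulated data in which all cells of a group shared the same expression profile. It therefore did not cover spread between cells. All 45 members could be named, as could any gene of the fixed lists. Members and lists were chosen with earlier results of these data known. Gene positions came from GENCODE M21 on GRCm38, which held 32158 of the 32285 genes. Alternatives covered thinning depth and seed, filters, gates, doublets, the 3 broad genes, the fold and its minimum, and summing all UMIs.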

Additional observations from a re-analysis of the deposited data

Results flagged for a closer look

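The summed G2/M members moved in opposite directions in different classes, which is why these 3 ratios of knockdown to control are given again. The ratio was 1.16 in other T gated cells and 2.22 in regulatory T gated cells, with intervals above 1, and 0.770 in B gated cells, with an interval below 1. The difference between the classes was not tested. In B gated cells the members with most G2/M UMIs are the broad Stmn1, Tubb5 and Hmgb2, and without them the ratio was 0.833 (0.573 to 1.20).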

How the results depend on the processing

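With 1 library per group, a difference between the libraries and one between the conditions cannot be told apart. No paired analysis was possible because each group has 1 library. Counting error does not cover which cells a gate takes or which UMIs a thinning draws. Over all alternatives the ratio of knockdown to control in CD8 T gated cells ran from 0.806 to 1.10 for the S-phase sum and from 0.776 to 1.22 for the G2/M sum. In other T gated cells both sums stayed above 1 under every alternative run, at 1.06 to 1.19 and 1.07 to 1.246, but the cycling share crossed 0, from -0.313 to 9.42 points. With gates on all UMIs the interval of the S-phase ratio covered 1, at 1.07 (0.893 to 1.27). In regulatory T gated cells the G2/M ratio ran from 1.04 to 3.10. Keeping doublets or allowing at most 5% mitochondrial UMIs moved no result beyond its interval. The average of all thinnings, the removal of the richest regulatory T cell, the removal of shared barcodes, the split of other T gated cells, and the addition of regulatory T gated cells were chosen after seeing the data. Values below are for gated cells, percentages in brackets after a count of members are the share of all genes tested that was called the same way, cycling here means at least 2 of all 45 members, and the cause of each move was not tested. With cells thinned to 500 UMIs, the S-phase ratio was 1.10 in CD8 T and 1.16 in NK, the G2/M ratio was 1.22 in CD8 T, 1.10 in monocyte-macrophage and 1.08 in regulatory T, and the cycling share differed, in points, by 7.57 in CD8 T. The S-phase percent was then 32.2 in CD8 T, 34.1 in NK, 31.1 in monocyte-macrophage and 28.8 in regulatory T in the control library, and 30.0 in CD8 T, 31.2 in other T and 33.7 in regulatory T in the knockdown library. Member ratios were Mcm2 0.918, Rrm1 0.805, Birc5 1.27 and Plk1 0.936 in CD8 T; Hells 0.990, Fen1 0.904 and Ube2c 0.753 in other T; Mcm5 1.48 in NK; Mcm4 1.003 in monocyte-macrophage; Hmgb2 0.945 in regulatory T. At 2000 UMIs per cell, the S-phase ratio was 0.929 in NK, the G2/M ratio was 0.916 in CD8 T, 1.246 in other T, 1.11 in monocyte-macrophage and 1.37 in regulatory T, and the cycling share differed, in points, by 2.54 in other T and 4.05 in monocyte-macrophage. The S-phase percent was then 32.1 in CD8 T and 29.2 in regulatory T in the control library, and 33.1 in CD8 T and 27.2 in regulatory T in the knockdown library. Member ratios were Mcm2 0.964, Rrm1 0.956 and Plk1 0.770 in CD8 T; Mcm5 0.9996 in other T; Mcm3 0.604, Mcm4 0.960, Rrm1 0.982 and Birc5 0.999 in NK; Mcm4 1.004 and Dut 0.939 in monocyte-macrophage. With another random thinning, the S-phase ratio was 0.930 in CD8 T, and the G2/M ratio was 1.07 in other T, 0.9498 in NK, 1.16 in monocyte-macrophage and 1.71 in regulatory T. The S-phase percent was then 32.2 in CD8 T in the control library, and 34.6 in other T in the knockdown library. Member ratios were Mcm2 0.958, Rrm1 0.610, Plk1 0.769 and Cdc20 1.28 in CD8 T; Hells 0.807, Ube2c 0.742 and Nusap1 0.979 in other T; Mcm5 1.04 in NK; Mcm4 1.10 and Top2a 0.911 in monocyte-macrophage. With up to 20% mitochondrial UMIs, the S-phase ratio was 1.47 (1.10 to 1.97) in regulatory T. The S-phase percent was then 25.5 in regulatory T in the knockdown library. With gates on all UMIs, the S-phase ratio was 0.806 in CD8 T and 1.07 in other T, the G2/M ratio was 0.776 in CD8 T and 1.04 in regulatory T, and the cycling share differed, in points, by -7.45 in CD8 T, -0.313 in other T and 4.13 in monocyte-macrophage. The S-phase percent was then 33.7 in CD8 T, 34.8 in other T and 29.4 in regulatory T in the control library, and 34.5 in CD8 T and 26.6 in regulatory T in the knockdown library. Member ratios were Rrm1 0.775 and Plk1 0.964 in CD8 T; Hells 0.350, Cdca8 0.633 and Stmn1 0.475 in other T; Mcm4 1.03 and Dut 0.913 in monocyte-macrophage; Hmgb2 0.795 in regulatory T. Without Stmn1, Tubb5 and Hmgb2, the G2/M ratio was 1.23 in other T and 3.10 in regulatory T. The S-phase percent was then 50.6 in CD8 T, 56.0 in other T, 66.3 in NK, 50.6 in monocyte-macrophage and 60 in regulatory T in the control library, and 51.2 in CD8 T, 54.5 in other T, 67.4 in NK, 52.5 in monocyte-macrophage and 32.8 in regulatory T in the knockdown library. With all UMIs summed, the S-phase ratio was 1.06 in other T and 0.925 in NK, the G2/M ratio was 0.945 in NK, the members counted as higher were 0 of 45 in CD8 T (7.8%), 5 of 45 in other T (8.73%), 1 of 35 in NK (11.1%) and 0 of 40 in monocyte-macrophage (8.51%), and those counted as lower were 1 of 45 in CD8 T (8.57%), 9 of 35 in NK (10.2%) and 4 of 40 in monocyte-macrophage (10.6%). Member ratios were Mcm3 0.850, Rrm1 0.993 and Birc5 0.982 in NK; Top2a 0.918 in monocyte-macrophage. In the average over all thinnings, chosen after seeing the data, the ratio that turned was Top2a 0.965 in monocyte-macrophage. At a fold of 1.5, the members counted as higher were 1 of 41 in CD8 T (3.69%), 3 of 35 in other T (3.59%) and 1 of 19 in NK (4.08%), and those counted as lower were 0 of 41 in CD8 T (3.88%), 0 of 19 in NK (3.06%) and 0 of 12 in monocyte-macrophage (3.69%). With a minimum of 20 UMIs, those counted as lower were 4 of 28 in NK (15.5%) and 9 of 27 in monocyte-macrophage (18.9%). With no minimum, the members counted as higher were 12 of 45 in NK (29.8%) and 11 of 45 in monocyte-macrophage (29.2%), and those counted as lower were 1 of 45 in other T (31.1%), 10 of 45 in NK (28%) and 13 of 45 in monocyte-macrophage (30.9%).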
